A study of Homo sapiens with 5 samples.

Results

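The cells described here are SW480 tumor cells from zebrafish xenografts at 4 days post injection (dpi), divided by how much RNA they carried for APCDD1, NOTUM, NKD1 and AXIN2. These 4 genes encode inhibitors of the Wnt pathway that the pathway itself switches on. In each plate, cells were ordered by a score, the summed unique molecular identifiers (UMIs, 1 per counted RNA molecule) of the 4 genes per 10000 UMIs of the cell. The highest-scoring 43 of 131 cells in library 10 and 53 of 160 in library 11 formed the high group. Equal numbers at the bottom formed the low group. The comparison thus covered 96 high and 96 low cells of 291 cells at 4 dpi and 822 in the series, with 99 middle cells kept for description only.

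The study asked which states of SW480 cells persist when the innate immune system of the host clears much of the tumor. SW480 is a human colorectal cancer line, here the parental population carrying GFP from a lentiviral vector, injected into zebrafish embryos that have innate but not yet adaptive immunity. Pooled tumors were dissected at 1 dpi (3 plates, libraries 6, 7 and 8) or 4 dpi (2 plates, libraries 10 and 11), digested with liberase in medium with DNase and a ROCK inhibitor, and sorted as single live cells negative for DAPI into plates of 384 wells. RNA was counted by SORT-seq, a plate method that tags the 3' end of each polyadenylated RNA with a cell barcode and a UMI. Each group below is therefore an untreated set of cells of 1 line, and high and low cells of a plate share the same pool of tumors, sort and library. Nothing states that the 2 plates of 4 dpi held separate tumor pools. P-values thus set the difference between groups against its spread from plate to plate, and this spread may be technical. The spread was estimated over the plates of both time points together and drawn toward that of other genes, so it is not that of the 2 plates of 4 dpi alone.

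In canonical Wnt signaling, ligands bind Frizzled receptors and LRP5 or LRP6 at the membrane, the destruction complex of APC, AXIN1 and GSK3B is held back, and beta-catenin (CTNNB1) enters the nucleus to act with TCF and LEF factors. Many of the genes switched on in this way restrain the pathway: AXIN2 rebuilds the destruction complex, NKD1 binds Dishevelled, NOTUM removes the lipid from Wnt ligands, and APCDD1 blocks the receptors. In the intestine this program marks stem cells at the crypt base, and SW480 cells carry a truncated APC, which leaves beta-catenin active without a ligand.

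TCF and LEF factors bind the letters CTTTGNN with A or T at each N, and these 4 words of 7 letters were searched on both strands of promoter windows of 300 bases (250 before to 50 after a start site; RefSeq, GRCh38.p14). Of 21 genes looked up (the score genes and the Wnt genes that rose, described below), 13 had a window and 3 of these (DKK1, SP5 and TCF7) held a match. The windows of DKK1 (chr10:52314031-52314330, plus strand) and SP5 (chr2:170715087-170715386, plus strand) are shown because both genes rose with the score and held several matches, and that of APCDD1 (chr18:10454385-10454684, plus strand) because it is the score gene with a window. Capitals mark the matches on either strand, and no 2 of them overlap.
DKK1: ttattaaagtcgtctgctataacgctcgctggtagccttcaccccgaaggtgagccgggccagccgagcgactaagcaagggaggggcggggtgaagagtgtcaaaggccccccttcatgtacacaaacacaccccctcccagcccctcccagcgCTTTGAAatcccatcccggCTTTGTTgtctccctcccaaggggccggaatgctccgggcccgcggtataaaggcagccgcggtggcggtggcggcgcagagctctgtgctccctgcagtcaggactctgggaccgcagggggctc
SP5: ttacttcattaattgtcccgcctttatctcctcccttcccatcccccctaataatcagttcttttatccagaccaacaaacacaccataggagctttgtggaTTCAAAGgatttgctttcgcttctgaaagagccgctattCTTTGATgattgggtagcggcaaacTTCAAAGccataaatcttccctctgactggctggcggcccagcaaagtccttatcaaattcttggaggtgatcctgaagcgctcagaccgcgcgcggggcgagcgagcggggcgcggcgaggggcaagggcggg
APCDD1: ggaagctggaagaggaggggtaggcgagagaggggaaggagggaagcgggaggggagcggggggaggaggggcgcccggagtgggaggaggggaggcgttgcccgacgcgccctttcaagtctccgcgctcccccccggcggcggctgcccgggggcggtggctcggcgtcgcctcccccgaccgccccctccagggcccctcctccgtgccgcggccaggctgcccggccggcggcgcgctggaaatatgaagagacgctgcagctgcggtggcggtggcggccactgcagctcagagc

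The DKK1 window held 2 matches and the SP5 window 3, and the APCDD1 window held none of these words. A match occurred in 13.8% of all 35116 windows of the table. Among genes tested at 4 dpi it occurred in 9.36% of 2425 windows of genes higher in high cells, 9.85% of 2446 windows of genes lower and 9.26% of 7509 windows of genes that were not called. Genes that moved with the score and genes that did not thus held these letters close to a start site in like shares. A match is a description of the sequence and not evidence of binding.

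The score separated the groups widely, as it was built to do. Its median was 29.0 in high and 2.86 in low cells of library 10, and 23.5 and 3.22 in library 11. The last cell inside the high group scored 19.8 and the first outside 19.7 in library 10 (17.6 and 16.9 in library 11), and at the other limit the low group ended at 7.90 with the next cell at 8.06 (7.68 and 7.70 in library 11). No cells were tied at a limit. The limits thus fell between cells of close score, and whether the cells form separate clusters was not tested.

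**Figure D1:**
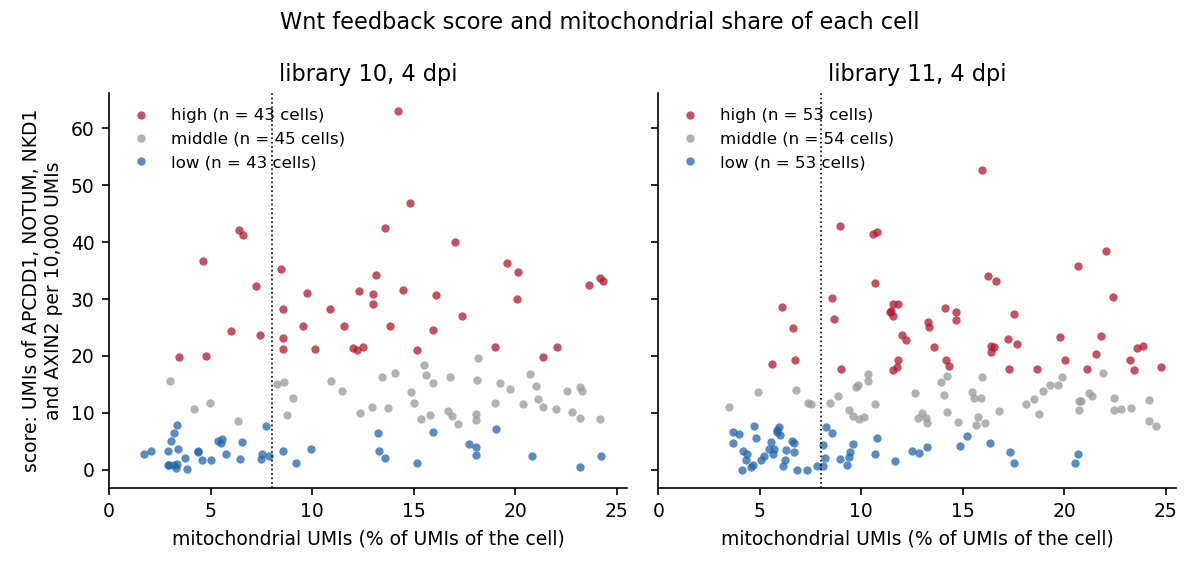
Score of each cell (UMIs of APCDD1, NOTUM, NKD1 and AXIN2 per 10000 UMIs) against the percent of its UMIs on mitochondrially encoded genes, for the 131 cells of library 10 and the 160 of library 11; red points are high, grey middle and blue low cells, and the dotted line is at 8%. Blue points crowd left of the line (28 of 43 and 30 of 53), where few red points lie (8 of 43 and 4 of 53).

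The groups differed in another property that the score did not use, the share of UMIs from mitochondrially encoded genes. Its median was 13.0% in high and 5.76% in low cells of library 10, and 14.3% and 6.69% in library 11, with middle cells at 16.7% and 15.5%. Cells below 8% made up 28 of 43 low cells (65.1%) in library 10 and 30 of 53 (56.6%) in library 11, against 8 of 43 (18.6%) and 4 of 53 (7.55%) of the high cells. At 1 dpi, the same split gave 9 of 75, 10 of 47 and 12 of 54 low cells below 8%, and 20 of 75, 14 of 47 and 12 of 54 high cells. The limit of 8% was chosen after seeing the data. In both plates of 4 dpi more low than high cells were thus below 8%, while no plate of 1 dpi had more low than high cells there. Whether the mitochondrial share has a part in the results was not tested, and the main results below are given also for the 70 highest and 70 lowest cells after all cells under 8% had been left out of every library before the split. In these, the median score was 30.8 in high and 7.63 in low cells of library 10 and 26.4 and 5.78 in library 11, so the low groups lay closer to the high groups than in all cells.

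Other properties differed less, or in opposite directions. Median depth was 22341 UMIs in high and 29430 in low cells of library 10, and 19189 and 17331 in library 11. S and G2/M phase genes took 38.6 of 10000 UMIs in high and 55.1 in low cells of library 10, and 50.1 and 39.3 in library 11. Human UMIs per ERCC spike-in UMI, a guide to RNA content, had medians of 77.2 and 125 in library 10 and 43.9 and 41.4 in library 11. The libraries of the series held 4487175 to 7632953 human UMIs. Libraries 10 and 11 used the same 384 well barcodes, and 61 of these passed the filters in both.

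Levels of the score genes followed the split by construction and are given as a description, in CPM (UMIs of the summed cells scaled to a common total). APCDD1 stood at 772 in high, 361 in middle and 78.8 in low cells of library 10, and at 696, 264 and 55.7 in library 11. NOTUM stood at 1167, 349 and 79.5, and at 729, 345 and 104. NKD1 stood at 674, 393 and 107, and at 929, 424 and 110. AXIN2 had the narrowest range, with 262, 172 and 84.6 in library 10 and 228, 169 and 97.7 in library 11. Across the cells of a library, Spearman's rho between pairs of these genes (UMIs per 10000, 131 or 160 cells that share depth and library) ran from 0.26 to 0.65 in library 10 and from 0.08, for NOTUM with AXIN2, to 0.62 in library 11.

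Each score gene was therefore tested in groups made from the other 3 genes, in which its own counts had no part. Counts were summed per plate and group, and the 10 sums of both time points were fitted together with edgeR's quasi-likelihood test, with the plate as a block and p-values adjusted by Benjamini-Hochberg over all genes tested. All 4 genes were higher in the high groups of both plates, APCDD1 by the most and AXIN2 by the least. Levels here and below are CPM scaled by the trimmed mean of M-values (TMM).

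APCDD1 was at 756 in high and 79.0 in low cells of library 10, and at 641 and 80.4 in library 11. NOTUM was at 979 and 81.9, and at 644 and 154. NKD1 was at 641 and 119, and at 844 and 154. The groups did not overlap for any of these, nor for AXIN2, which was at 261 and 100 in library 10 and at 222 and 102 in library 11. Such a lack of overlap was common, and in the main groups it held for 68.4% of all genes tested. The log2 ratio of high over low cells was 3.13 for APCDD1 (standard error 0.19, edgeR adjusted p = 3.19e-09), 2.79 for NOTUM (0.23, 1.46e-07), 2.44 for NKD1 (0.13, 1.02e-10) and 1.26 for AXIN2 (0.15, 1.28e-06). The ratios were smaller and all 4 still passed in cells of at least 8% mitochondrial UMIs, at 1.56 for APCDD1 (edgeR adjusted p = 3.47e-05), 1.56 for NOTUM (1.56e-04), 1.29 for NKD1 (4.60e-04) and 0.75 for AXIN2 (0.0152). Over all genes tested, 20.4%, 20.3%, 18.1% and 20.9% were called higher with APCDD1, NOTUM, NKD1 and AXIN2 left out of the score, in this order. Each of the 4 inhibitors was thus higher where the other 3 were high, in the summed cells of both plates of 4 dpi.

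**Figure D2:**
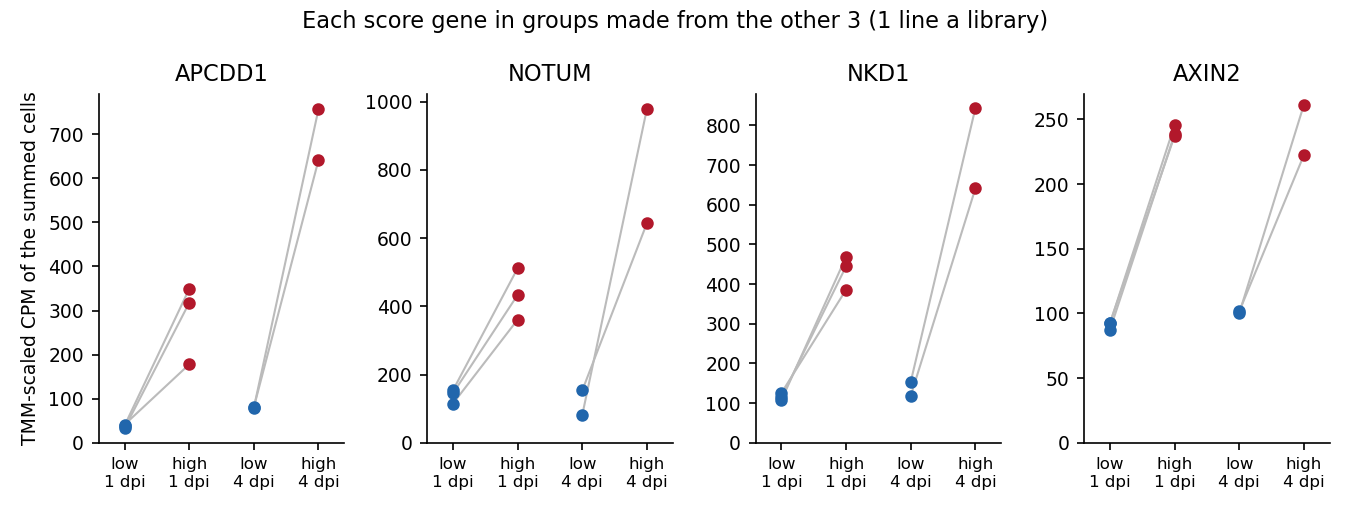
TMM-scaled CPM of each score gene in low (blue) and high (red) cells grouped by the other 3 genes, with 1 line for each of the 3 plates of 1 dpi and the 2 of 4 dpi; axes start at 0. Red points lie above blue points in all 5 plates for all 4 genes.

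At 1 dpi the same test gave 2.88 for APCDD1, 1.66 for NOTUM, 1.89 for NKD1 and 1.41 for AXIN2, all higher in 3 of 3 plates. The ratio of NOTUM was larger at 4 than at 1 dpi by 1.14 (standard error 0.29, edgeR adjusted p = 0.00624). That call rested on library 10, without which the difference was 0.41 (adjusted p = 0.170), and was lost after thinning cells to 5000 UMIs (0.57, 0.281). NKD1 differed by 0.55 (adjusted p = 0.0230) and did not pass without library 10 (0.101), without library 11 (0.124) or after thinning (0.481). The differences of APCDD1 (0.25, adjusted p = 0.497) and AXIN2 (-0.15, 0.594) did not pass. In cells of at least 8% mitochondrial UMIs, APCDD1 differed in the other direction, by -1.502 (adjusted p = 0.00384), and within strata of mitochondrial share so did APCDD1 (-1.01, 0.0240) and NKD1 (-0.63, 0.0307).

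Away from the score genes, much of the transcriptome moved with the split. Of 11046 genes tested at 4 dpi, 39.3% passed an edgeR adjusted p of 0.05, with 2129 (19.3%) higher and 2212 (20.0%) lower in high cells, and 2600 of them changed by over 1 on the log2 scale. Without library 11, 1131 were higher and 1243 lower. All 4341 moved the same way in libraries 10 and 11, and for 42.8% of them the middle group lay between high and low in both libraries, against 14.2% of genes not called. Both follow in part from the call, which favors genes with a wide gap in the same direction in both libraries. They are thus a description only. The high and low sums did not overlap for 68.4% of all genes tested. The same split gave 15.6% called at 1 dpi, and the difference between time points passed for 29.4% (14.4% higher, 14.9% lower). Without scaling beyond the totals, an alternative added after seeing the data, the median of all genes moved from -0.01 to -0.22, and 1510 genes were higher (13.7%) and 3023 lower (27.4%), 41.0% together, so that 33.3% of calls were higher in place of 49.0%.

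Far fewer genes were called once the low-mitochondrial cells had been left out. In cells of at least 8% mitochondrial UMIs, 151 genes were higher and 252 lower, which is 1.47% and 2.45% of 10265 tested, 3.93% together. Counts of list members that passed in these cells, given below, stand against these shares. Of the 4177 genes called in all cells and tested there, 94.6% kept their sign, 9.46% passed in the same direction and none passed in the opposite direction, while 98.0% of the 403 genes called there had been called in all cells. When the ends of the score were instead taken within 3 strata of mitochondrial share (94 and 94 cells, with medians of 13.0% in high and 13.4% in low cells of library 10 and 11.8% and 12.8% in library 11), 894 genes were higher (8.28%) and 1079 lower (9.99%), 18.3% of 10799. Both alternatives also compared fewer cells, the former over a narrower range of scores, and the part of each in the lower counts was not tested.

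**Figure D3:**
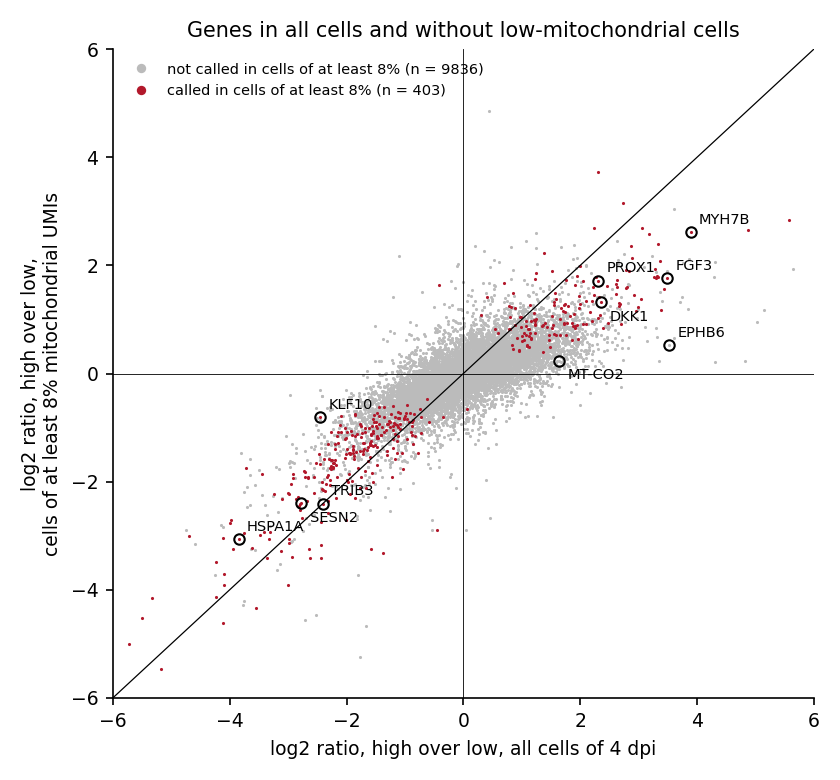
Log2 ratio of high over low cells for each gene in all cells of 4 dpi (horizontal) and in cells of at least 8% mitochondrial UMIs (vertical), with the line of equal values; red points are the 403 genes called in the latter, circles are named genes, and 10 of 10239 genes lie outside the axes. Points fall mostly in the lower left and upper right, closer to 0 on the vertical axis; EPHB6 falls to 0.52 and MT-CO2 to 0.24, and TRIB3 lies on the line.

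Of the other feedback inhibitors of the Wnt pathway, more rose than fell in high cells. Of 28 genes of this list, 26 were in the files and 14 had enough counts to be tested, and of these 7 rose and 1 fell, against 19.3% higher and 20.0% lower over all genes. The median log2 ratio of the list was 0.52 against -0.01 over all genes (5 higher, 3 lower and 0.30 against -0.22 without scaling). DKK1, a secreted inhibitor of LRP5 and LRP6, was at 71.4 in high and 15.8 in low cells of library 10 and at 74.4 and 12.4 in library 11. It rose by 2.36 on the log2 scale (standard error 0.27, edgeR adjusted p = 7.3e-06), and its high and low levels did not overlap, as for 68.4% of all genes.

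RNF43 and ZNRF3, membrane ubiquitin ligases that remove Frizzled receptors, moved less. RNF43 was at 39.6 and 18.5 in library 10 and at 45.6 and 17.6 in library 11 (log2 ratio 1.23, adjusted p = 0.0029). ZNRF3 was at 93.6 and 58.7 and at 86.5 and 52.0 (0.70, 0.0078). TNFRSF19, a receptor of crypt stem cells, rose by 1.88, SFRP5, a secreted Wnt binder, by 2.44, and KREMEN1, a co-receptor of DKK1, by 1.18. BAMBI, which the list includes although it is a decoy receptor of TGF-beta, rose by 0.68. SFRP5, TNFRSF19 and KREMEN1 rested on 31, 34 and 70 UMIs in all. TLE4, a co-repressor, fell, with 3 UMIs in high and 29 in low cells, a ratio of 8.24 per UMI sequenced (95% exact interval 2.56 to 42.3). NKD2, the relative of NKD1, was at 40.5 and 52.1 and at 30.7 and 57.1, and its ratio of -0.62 did not pass (adjusted p = 0.056). Among cells of at least 8% mitochondrial UMIs, 2 of 13 tested genes of the list passed, DKK1 (1.32, adjusted p = 0.0216) and RNF43 (1.75, 0.0152), and the median was 0.36.

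Wnt target and intestinal stem cell genes went both ways. Of 38 genes, 29 were tested, 10 rose and 7 fell, with a median of 0.32, against 19.3% higher and 20.0% lower over all genes. Without scaling 7 were higher and 10 lower, with a median of 0.10. PROX1 and ASCL2, transcription factors of Wnt-driven intestinal cells, rose most clearly. PROX1 was at 359 in high and 73.8 in low cells of library 10 and at 420 and 82.7 in library 11 (log2 ratio 2.31, standard error 0.18, edgeR adjusted p = 2.2e-07). ASCL2 was at 146 and 22.4 and at 181 and 44.7 (2.32, 0.23, 1.9e-06). UMIs of ASCL2 were found in 37 of 43 and 43 of 53 high cells and in 14 of 43 and 20 of 53 low cells. Both also rose in cells of at least 8% mitochondrial UMIs, PROX1 by 1.72 (adjusted p = 7.0e-04) and ASCL2 by 1.41 (0.0027).

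SP5, a transcription factor switched on by Wnt signaling, was at 188 and 63.9 in library 10 and at 215 and 122 in library 11 and rose by 1.16 (adjusted p = 1.3e-04). The Wnt effectors TCF7 (1.53, adjusted p = 0.0012) and LEF1 (0.71, 0.045) rose as well, but TCF7 did not pass in cells of at least 8% (0.99, 0.163). EPHB2, CDCA7 (2.15), CD44 (0.92), SOX4 (0.88) and BIRC5 (0.87) made up the rest of the genes that rose. LEF1 (adjusted p = 0.159), CD44 (0.0784) and BIRC5 (0.118) did not pass without scaling, and the log2 ratios of CD44 and BIRC5 within library 10 were 0.24 and 0.21. SP5 (0.97, adjusted p = 0.00975) and SOX4 (0.91, 0.0290) also passed in cells of at least 8%, where 4 of 28 tested were higher and 2, ID2 and KLF5, lower.

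Well-known targets were among the genes that fell or did not pass. ID2, an inhibitor of basic helix-loop-helix factors, was at 90.7 in high and 312 in low cells of library 10 and at 80.9 and 428 in library 11 (log2 ratio -2.09, adjusted p = 6.5e-07). MSX1, a homeobox factor, was at 11.6 and 36.3 and at 7.44 and 81.3 (-2.56, 7.6e-05). CCND1, cyclin D1, was at 186 and 290 and at 224 and 448 (-0.82, 2.2e-04). KLF5 (-1.17), JAG1 (-1.67), VEGFA (-1.09) and MSX2 (-0.51) also fell. LGR5, the crypt stem cell receptor, was at 14.5 and 11.9 and at 14.9 and 11.0, a ratio of 0.36 that did not pass (adjusted p = 0.50). Neither did MYC (0.32, 0.16), SOX9 (0.20, 0.33) and EPHB3 (0.30, 0.48).

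Among the 36 tested of 46 components of the pathway itself, 6 rose and 12 fell, with a median of -0.18, against 19.3% higher and 20.0% lower over all genes (4 and 15 of the list without scaling). Of 34 tested in cells of at least 8%, 2 were higher and none lower, with a median of -0.08. Beta-catenin, CTNNB1, was at 480 in high and 207 in low cells of library 10 and at 538 and 163 in library 11 (log2 ratio 1.46, standard error 0.15, edgeR adjusted p = 1.9e-06), and it rose in cells of at least 8% too (0.71, 0.022). The co-receptor LRP5 was at 46.3 and 12.5 and at 40.9 and 9.52 (1.98, 6.8e-05; 1.22, 0.042 in cells of at least 8%). The receptor FZD5 was at 7.72 and 21.1 and at 8.37 and 24.9 and fell (adjusted p = 0.00902), but not in cells of at least 8% (0.111). FZD7 had 1 UMI in high and 33 in low cells, a ratio of 28.1 per UMI sequenced (95% exact interval 4.71 to 1145). It had enough counts to be tested only through the low cells of 4 dpi, so its call rests on a gene admitted for being high there. ROR1, a receptor of other Wnt branches, had 3 and 25, a ratio of 7.11 (2.17 to 36.8). Of the Wnt and R-spondin ligands, 1 of 22 had enough counts to be tested, and it was not called.

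The 12 genes with the largest rise by log2 ratio (of those called in the same direction in both libraries with at least 50 UMIs) were DBH-AS1, MUC5AC, CEMIP, MYH7B, HES2, TSPAN7, ROBO2, EPHB6, FGF3, GPX2, CXCL2 and DPEP1. MYH7B, a myosin heavy chain, was at 181 in high and 19.1 in low cells of library 10 and at 205 and 6.59 in library 11 (log2 ratio 3.89, standard error 0.30, adjusted p = 2.2e-07). FGF3, a fibroblast growth factor, was at 138 and 18.5 and at 164 and 8.05 (3.49, 0.28, 3.4e-07). It was detected in 34 of 43 and 47 of 53 high cells, and in 13 of 43 and 4 of 53 low cells.

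GPX2, the gastrointestinal glutathione peroxidase, was at 205 in high and 27.0 in low cells of library 10 and at 270 and 16.1 in library 11 (3.43, 0.27, 2.5e-07). DPEP1, a renal and intestinal dipeptidase, was at 160 and 21.8 and at 150 and 8.05 (3.39, 0.28, 4.1e-07). EPHB6, an Eph receptor without kinase activity, was at 148 and 13.2 and at 176 and 14.6 (3.53, 0.24, 6.5e-08). These genes were carried by many cells: EPHB6, for example, was found in 35 of 43 and 45 of 53 high cells, and no cell held over 34 of its UMIs. For MYH7B, 1 cell gave 59 of 220 UMIs in high cells of library 11, and for GPX2, 1 cell gave 40 of 212 in library 10.

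DBH-AS1, a non-coding RNA antisense to DBH, had 116 UMIs in high and 3 in low cells, a ratio of 45.3 per UMI sequenced (95% exact interval 15.1 to 223), and the sources used here do not give how strand was treated in counting. CEMIP, a hyaluronan-degrading protein, had 70 and 3 (27.4, 8.98 to 136), and MUC5AC, a gel-forming mucin, 54 and 2 (31.7, 8.35 to 268). Exact intervals cover counting error only. DBH-AS1, MUC5AC and HES2 reached the filter on low counts through the high cells of 4 dpi, so their tests rest on genes admitted for being high there. Among cells of at least 8% mitochondrial UMIs, MYH7B (2.61, adjusted p = 7.2e-04), FGF3 (1.76, 0.0014), GPX2 (1.56, 0.0066), DPEP1 (1.17, 0.0074), CEMIP (0.0071) and DBH-AS1 (0.0014) also passed. EPHB6 (0.52, adjusted p = 0.21), MUC5AC (0.43), HES2 (0.052), TSPAN7 (0.19), ROBO2 (0.21) and CXCL2 (0.40) did not.

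The 12 genes with the largest fall were EPAS1, TBX2, DHRS2, CYP1A1, SPRR2D, ADM, BPIFC, GULP1, GATA3, ATP13A5, HSPA6 and COL12A1, and high cells had at most 8 UMIs a plate for any of them. EPAS1, the hypoxia-inducible factor HIF-2 alpha, had no UMI in the 96 high cells and 41 and 49 UMIs in low cells of libraries 10 and 11, found in 13 of 43 and 20 of 53 cells. It was at least 25.6-fold lower in high cells, with a floor of 3 counts over the group (edgeR adjusted p = 2.0e-05). EPAS1 reached the filter on low counts through the low cells of 4 dpi, as did GATA3, CYP1A1, ATP13A5 and COL12A1, among others. Their tests and bounds thus rest on genes admitted for being high there. TBX2, a T-box repressor, had none and 20 and 54, at least 21.0-fold lower (adjusted p = 1.7e-04), but 29 of the 54 came from 1 cell.

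DHRS2, a mitochondrial dehydrogenase, showed the widest gap in level, at 2.90 in high and 618 in low cells of library 10 and at 7.44 and 467 in library 11 (log2 ratio -6.67, standard error 0.39, adjusted p = 2.6e-08). It came from 16 of 43 and 18 of 53 low cells, and 1 cell gave 493 of its 937 UMIs in library 10 and another 237 of 638 in library 11. Low cells under 8% mitochondrial UMIs held 913 and 604 of these UMIs. Single cells thus made up a large share of this level.

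GATA3, a transcription factor, had 1 UMI in high and 63 in low cells (ratio 53.7 per UMI sequenced, 9.30 to 2156), and 29 of 30 and 33 of 33 of the low group's UMIs were in cells under 8%. CYP1A1, a target of the aryl hydrocarbon receptor, had 1 and 95 (81.0, 14.2 to 3234), with 72 of 74 and 21 of 21 in cells under 8%. ADM, adrenomedullin, a hypoxia target, had 1 and 84 (71.6, 12.5 to 2863), and its level in low cells from 8% upward was 27.6 CPM in library 10 (11 UMIs) and 52.0 in library 11, against 34.1 and 24.7 below 8%, so that the order differed between the plates. GULP1, an adaptor of engulfment, had 3 and 175 (49.8, 16.8 to 244). HSPA6, an inducible heat shock protein, had 1 and 58, of which 39 came from 1 cell.

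**Figure D4:**
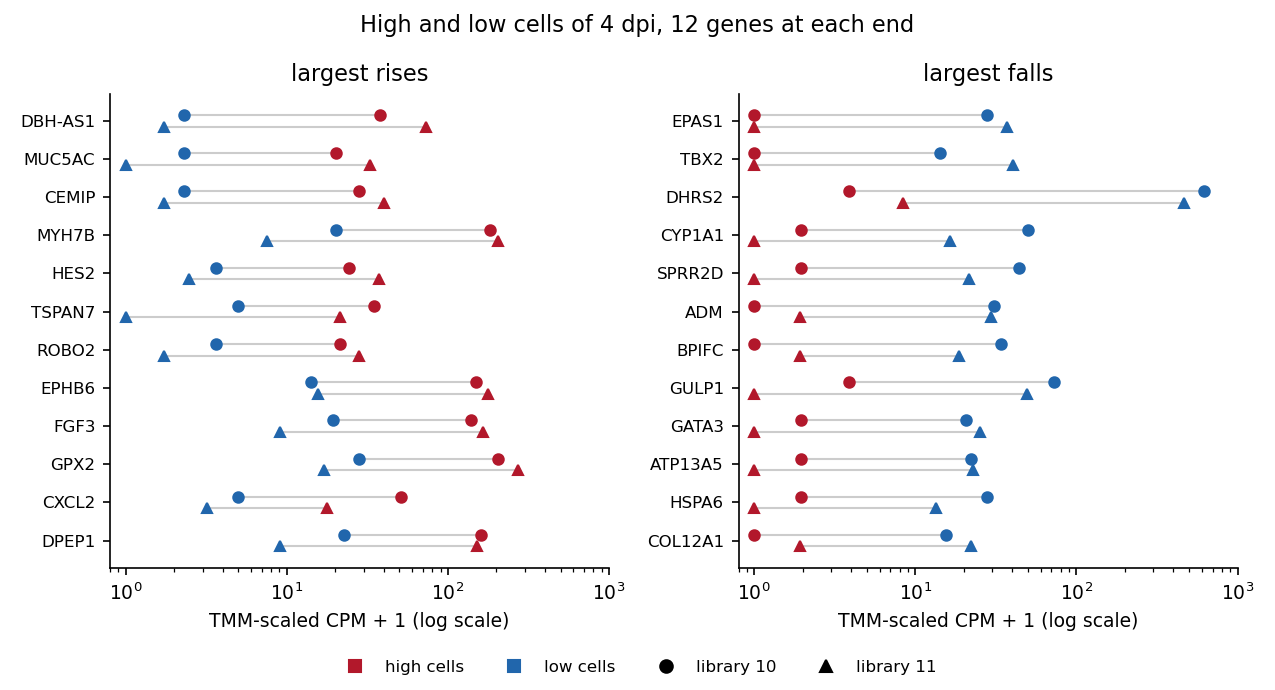
TMM-scaled CPM plus 1 (log axis) in high (red) and low (blue) cells of library 10 (circles) and library 11 (triangles) for the 12 genes with the largest rise and the 12 with the largest fall. In the left panel every red symbol lies right of its blue partner, and in the right panel every red symbol lies left of it.

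Of the 12 genes that rose most, 5 also passed at 1 dpi in the same direction, and for 11 the contrast differed between time points. Of the 12 that fell most, 3 passed at 1 dpi in the same direction and 9 differed. These genes were picked for their ratio at 4 dpi, which itself favors a difference from 1 dpi, so these counts are a description. Among all genes tested, 29.4% passed the test of the difference, and at 1 dpi 6.18% were higher and 9.42% lower. Among cells of at least 8%, EPAS1 (adjusted p = 0.023), DHRS2 (0.0066), SPRR2D (0.021), ADM (0.0075), BPIFC (0.017), GULP1 (0.011) and HSPA6 (0.0065) were still lower, and the other 5 had too few counts to be tested.

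Notch pathway genes split evenly at 4 dpi, with 6 of 26 higher and 6 lower and a median of -0.20, against 19.3% higher and 20.0% lower over all genes. HES6, a Notch antagonist of neural and secretory progenitors, was at 180 in high and 43.5 in low cells of library 10 and at 252 and 40.3 in library 11 (log2 ratio 2.35, standard error 0.21, edgeR adjusted p = 7.4e-07). The ligand JAG2 was at 137 and 32.3 and at 125 and 48.3 (1.71, 0.22, 2.5e-05). HES1, a direct Notch target, was lower in high cells, at 74.3 and 145 and at 40.0 and 122 (-1.25, 0.27, 0.0017).

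HES5, another target, had 11 UMIs in high and 2 in low cells (ratio 6.45 per UMI sequenced, 1.41 to 59.9), and 5 of the 8 in high cells of library 11 came from 1 cell. The ligand DLL4 had 5 and 32 (log2 ratio -2.21, adjusted p = 0.021). HES1 and HES6 thus went in opposite directions between the same groups. HES1 differed between time points (adjusted p = 2.1e-05): at 1 dpi it was higher in high cells by 1.31 (adjusted p = 4.7e-05). HES6 passed in cells of at least 8% (1.08, adjusted p = 0.0128), and HES1 (-0.51, 0.203), JAG2 (0.67, 0.127) and HES5 (0.25, 0.884) did not.

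Secretory lineage genes were also divided, with 4 of 11 higher, 4 lower and a median of 0.39, against 19.3% higher and 20.0% lower over all genes. The mucins MUC5AC, MUC5B and MUC1 and the trefoil peptide TFF3 were higher, while the neuroendocrine genes CHGB and SYP, the tuft cell marker DCLK1 and DLL4 were lower. The mucins reached the filter on low counts through the high cells of 4 dpi, and CHGB and DLL4 through the low cells. Their tests thus rest on genes admitted for being high there. TFF3 was at 130 in high and 48.8 in low cells of library 10 and at 138 and 32.2 in library 11 (log2 ratio 1.73, adjusted p = 2.6e-04). CHGB had 5 UMIs in high and 83 in low cells. Of 9 genes tested in cells of at least 8%, CHGB alone passed (lower, adjusted p = 0.0398), TFF3 was at 0.12 (0.819) and the median was -0.35.

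Of 16 chemokine and IL10 signaling genes, 6 rose and 1 fell, with a median of 0.50, against 19.3% higher and 20.0% lower over all genes (5 and 2 of the list without scaling). CXCL1, a neutrophil chemokine, was at 114 in high and 5.27 in low cells of library 10 and at 18.6 and 6.59 in library 11 (log2 ratio 3.33, standard error 0.79, edgeR adjusted p = 0.0034). Few cells carried it, 7 of 43 and 8 of 53 high cells, and 83 of its 118 UMIs in library 10 were from 1 cell. CXCL8 was at 183 and 65.3 and at 78.1 and 10.2 (1.94, 0.41, 0.0015), with 106 of 190 UMIs from 1 cell. CCL20 (3.36, adjusted p = 0.041) was found in 9 of 43 and 6 of 53 high cells. CXCL2 was found in 6 of 43 and 7 of 53 high cells, and 32 of its 52 UMIs in library 10 were from 1 cell. CXCL1 was the 1 gene of 15 that passed in cells of at least 8% (2.40, 0.042; median of the list 0.25), and CXCL8 (0.51, 0.43) and CCL20 (1.51, 0.21) did not.

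Genes of the unfolded protein and amino acid response were lower in high cells. Of 25 tested, 14 fell and 1, PDIA3, rose, against 20.0% lower and 19.3% higher over all genes. Their median was -0.86, with per-library medians of -0.74 and -0.84. TRIB3, a pseudokinase induced by ATF4, was at 145 in high and 545 in low cells of library 10 and at 122 and 901 in library 11 (log2 ratio -2.40, standard error 0.18, edgeR adjusted p = 1.8e-07). SESN2, sestrin 2, was at 16.4 and 158 and at 27.9 and 146 (-2.77, 0.23, 3.4e-07). CEBPB was at 50.2 and 289 and at 54.0 and 222 (-2.28, 0.18, 3.0e-07).

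This group kept its pattern without the low-mitochondrial cells, where 12 of 25 were lower, none higher and the median was -0.62. TRIB3 (-2.41, adjusted p = 7.9e-04), SESN2 (-2.39, 7.2e-04) and CEBPB (-1.98, 4.0e-04) were among them. At 1 dpi, 23 of 25 were lower and none higher, with a median of -0.92, against 9.42% lower and 6.18% higher over all genes. TRIB3 was also spread over the low group, with UMIs in 40 of 43 and 41 of 53 low cells.

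Heat shock genes fell more often than they rose, 10 against 4 of 19, with a median of -0.55, against 20.0% lower and 19.3% higher over all genes. HSPA1A was at 8.68 in high and 74.5 in low cells of library 10 and at 7.44 and 167 in library 11 (log2 ratio -3.85, adjusted p = 9.5e-07). Single cells decided that level, with 81 of 113 UMIs in library 10 and 210 of 228 in library 11 from 1 low cell each. HSPA1A and HSPA1B are near-identical copies whose reads the counting may have divided between them. BAG3, a co-chaperone, was at 16.4 and 58.0 and at 18.6 and 97.4 (-2.13, 1.0e-04). The chaperones that rose were HSPA8, HSPB1 and the mitochondrial pair HSPD1 and HSPE1. Of 19 tested in cells of at least 8%, 4 were lower and none higher, with a median of -0.28, and BAG3 did not pass (-1.33, adjusted p = 0.0654).

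Immediate early genes, switched on within minutes of stimulation or stress, were lower too: 16 of 33 fell and 3 (BTG2, DUSP2 and NR4A1) rose, with a median of -0.72, against 20.0% lower and 19.3% higher over all genes. KLF10, a repressor induced by TGF-beta, was at 132 in high and 569 in low cells of library 10 and at 119 and 824 in library 11 (log2 ratio -2.45, standard error 0.15, edgeR adjusted p = 3.1e-08). It was found in 41 of 43 and 45 of 53 low cells, and cells under 8% held 772 of 863 and 1041 of 1126 of the low group's UMIs. IER5 (-2.28) and ARC (-2.44) fell as well. At 1 dpi KLF10 was higher in high cells by 1.27 (adjusted p = 1.5e-06). The list had 5 higher and 4 lower genes there, against 6.18% higher and 9.42% lower over all genes. Of 32 tested in cells of at least 8%, 9 were lower and 1 higher, with KLF10 at -0.81 (0.035) and IER5 at -2.05 (0.0018).

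Death receptor and apoptosis regulators fell in 10 of 21 cases and rose in 2 (BID and BCL2), with a median of -0.54, against 20.0% lower and 19.3% higher over all genes. BCL2 rested on 25 UMIs and was not called without scaling (adjusted p = 0.064). BIRC3, an inhibitor of apoptosis, was at 17.4 and 43.5 and at 18.6 and 49.0 (log2 ratio -1.36, adjusted p = 6.0e-04), and the decoy receptor TNFRSF10D fell by 1.54 (8.4e-04). None of 20 passed by edgeR in cells of at least 8%, where the median was -0.35. Of 23 interferon-stimulated genes, 3 rose (IFI6, IFITM2 and OAS3) and 6 fell, HLA-E by 1.78 and IRF7 by 2.55, with a median of -0.50, and 1 of 20 (HLA-E, -0.93, adjusted p = 0.0485) passed in cells of at least 8%.

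Cell cycle genes depended on the plate. S phase genes were higher in 14 of 41 cases and lower in 2, against 19.3% higher and 20.0% lower over all genes. Their median was 0.44 over both plates, 0.19 within library 10 and 0.84 within library 11. UHRF1 was at 50.2 in high and 21.8 in low cells of library 10 and at 39.1 and 6.59 in library 11 (log2 ratio 1.70, adjusted p = 0.0013). G2/M genes had 3 higher and 8 lower of 54 and a median of -0.42, but the median was -1.40 within library 10 and 0.48 within library 11. Without scaling 2 were higher and 17 lower, and within strata of mitochondrial share 1 was higher and 19 lower, with a median of -0.80. For all genes these shares were 13.7% higher and 27.4% lower without scaling, and 8.28% and 9.99% within strata. HMMR, a mitotic gene, had 191 UMIs in low cells of library 10, and 123 of these came from 1 cell. No S phase gene of 40 (median -0.01) and no G2/M gene of 54 other than HMMR passed in cells of at least 8%.

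Regulators of G1 went both ways. The kinases CDK4 and CDK6, cyclin D2 (CCND2), the factors E2F1 and E2F3 and the inhibitor CDKN2C were the 6 of 20 that rose. The inhibitors CDKN1A, CDKN1B, CDKN1C, CDKN2B and CDKN2D and the cyclins CCND1 and CCND3 were the 7 that fell. The median of the list was 0.18, and over all genes 19.3% rose and 20.0% fell. CDK6 was at 594 in high and 260 in low cells of library 10 and at 851 and 232 in library 11 (log2 ratio 1.53, standard error 0.15, edgeR adjusted p = 1.9e-06). CDKN1A, p21, was at 16.4 and 91.6 and at 8.37 and 65.9 (-2.68, 0.44, 1.9e-04). CDKN2B was at 12.5 and 64.6 and at 5.58 and 60.8 (-2.80, 0.36, 2.3e-05). CDK6 (0.90, adjusted p = 0.0295), CDKN1A (-2.36, 0.0245) and CDKN2B (-2.52, 0.0203) also passed in cells of at least 8%.

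Genes of translation and respiration rose broadly at 4 dpi. Of 80 cytosolic ribosomal protein genes, 73 were higher and none lower, against 19.3% higher and 20.0% lower over all genes. Their median was 0.80 (0.58 without scaling). RPL41 was at 6133 in high and 3071 in low cells of library 10 and at 5391 and 2201 in library 11 (log2 ratio 1.15, adjusted p = 4.1e-07). At 1 dpi the same list had none higher and 74 lower, with a median of -0.59, and 73 of 80 differed between time points. For all genes the shares were 6.18% higher and 9.42% lower at 1 dpi, and 29.4% differed between time points. Of 83 nuclear subunits of oxidative phosphorylation, 50 rose and 3 fell, with a median of 0.52, against the same 19.3% and 20.0%. Without scaling 27 were higher, against 13.7% of all genes.

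Of 26 mitochondrially encoded genes, 16 rose and 2 (MT-TM and MT-TV) fell, with a median of 1.18, which restates the shares of mitochondrial UMIs given above. Among all genes 19.3% rose and 20.0% fell. MT-CO2, for example, rose by 1.64 (standard error 0.12, adjusted p = 8.8e-08). These 3 groups had few calls in cells of at least 8%: 3 of 79 ribosomal protein genes were higher (median 0.25), none of 82 respiratory subunits passed (0.16), and 3 of 25 mitochondrial genes were lower (-0.03). Within strata of mitochondrial share, 60 of 80 ribosomal protein genes were still higher and none lower (median 0.39), while 9 of 82 respiratory subunits were higher and 1 lower (0.17), and 2 of 26 mitochondrial genes were higher and 7 lower (-0.11). Among all genes tested within these strata, 8.28% were higher and 9.99% lower. The reads of ribosomal protein genes can also be shared with their many pseudogenes.

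Glycolysis and hypoxia genes went both ways. GPI, ENO1, GAPDH, LDHA, PFKL, PGK1, PKM, TPI1 and the transporter SLC2A1 were higher, 9 of 25, and ADM, NDRG1, DDIT4, VEGFA, BNIP3L, ENO2, P4HA1 and the transporter SLC2A3 lower. Their list had a median of 0.32, and over all genes 19.3% were higher and 20.0% lower. GPI was at 428 in high and 151 in low cells of library 10 and at 531 and 111 in library 11 (log2 ratio 1.87, adjusted p = 1.0e-06). NDRG1 was at 10.6 and 41.5 and at 6.51 and 60.8 (-2.56, 1.3e-04). DDIT4 was at 24.1 and 123 and at 16.7 and 93.0 (-2.40, 2.3e-06). ADM, NDRG1 (-1.92, adjusted p = 0.040) and DDIT4 (-2.16, 9.4e-04) were also lower in cells of at least 8%, and GPI was the gene of this list higher there (0.61, 0.0495).

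Epithelial-mesenchymal genes rose and fell in equal number, 6 and 6 of 21, with a median of 0.08, against 19.3% higher and 20.0% lower over all genes. S100A4, a calcium-binding protein often read as mesenchymal, rose the most (1.26), together with the epithelial genes EPCAM (0.80), KRT8 (0.94) and KRT18 (0.76) and the integrins ITGA6 and ITGB1. The mesenchymal genes SNAI1, SNAI2, ZEB1 and VIM fell, as did the epithelial genes TJP1, of tight junctions, and LAMB3, a laminin chain. CDH1, E-cadherin, was at -0.56 and did not pass (adjusted p = 0.0961). SNAI2 was at 29.9 in high and 94.3 in low cells of library 10 and at 26.1 and 135 in library 11 (log2 ratio -2.02, adjusted p = 1.6e-05). VIM was at 26.1 and 158 and at 88.4 and 141 (-1.49, 0.0046). Leaving out cells under 8%, SNAI2 (-1.21, 0.027) and SNAI1 (-2.12, 0.0497) passed, and no gene of the list was higher.

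All 4 sums held colon epithelial markers, with 4747 to 6002 UMIs over the 7 genes. Markers of leukocytes summed to 4 to 10 UMIs a group and plate, with MS4A1 at 0, those of endothelium to 2 or 3, and those of red cells to 1 to 7 (6 of 8, 3 of 4 and 3 of 4 of these markers were listed). Fibroblast markers summed to 40 and 24 UMIs in high and 97 and 59 in low cells, with COL1A2 and DCN at 0. COL1A1 had 2 and 2 UMIs in high and 61 and 20 in low cells, and fell by 3.75 (edgeR adjusted p = 3.4e-04) (0.0340 in cells of at least 8%). It reached the filter on low counts through the low cells of 4 dpi, and 17 of the 61 UMIs came from 1 cell. LUM, the other fibroblast marker tested, had 38 and 21 UMIs in high and 34 and 38 in low cells and was not called (log2 ratio 0.14).

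The contrast between high and low cells was not the same at both time points. At 1 dpi, where 352 high and low cells were compared in 3 plates, 683 genes were higher (6.18%) and 1040 lower (9.42%). Without scaling these counts were 1963 and 513, and without library 6 they were 199 and 419. Genes called at both times in the same direction numbered 591, which is 13.6% of those called at 4 dpi and 34.3% of those called at 1 dpi, and 393 were called in opposite directions. Both comparisons are within plates and share no cells. The feedback inhibitors (6 of 14 higher, none lower, median 0.97) and Wnt targets (13 of 29 higher, 4 lower, 0.26) leaned the same way at 1 dpi, as did the amino acid response in the other direction, while ribosomal proteins, respiratory subunits (none of 83 higher, 14 lower, -0.20) and immediate early genes (median 0.17) did not. At 1 dpi LGR5 (1.63, adjusted p = 0.0027), SOX9 (1.23, 5.2e-06), NKD2 (1.20, 2.5e-04) and EPHB3 (1.56, 6.4e-05) were higher in high cells. The difference from 4 dpi passed for SOX9 (adjusted p = 0.0012), NKD2 (3.8e-04) and EPHB3 (0.020), but not for LGR5 (0.078).

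**Figure D5:**
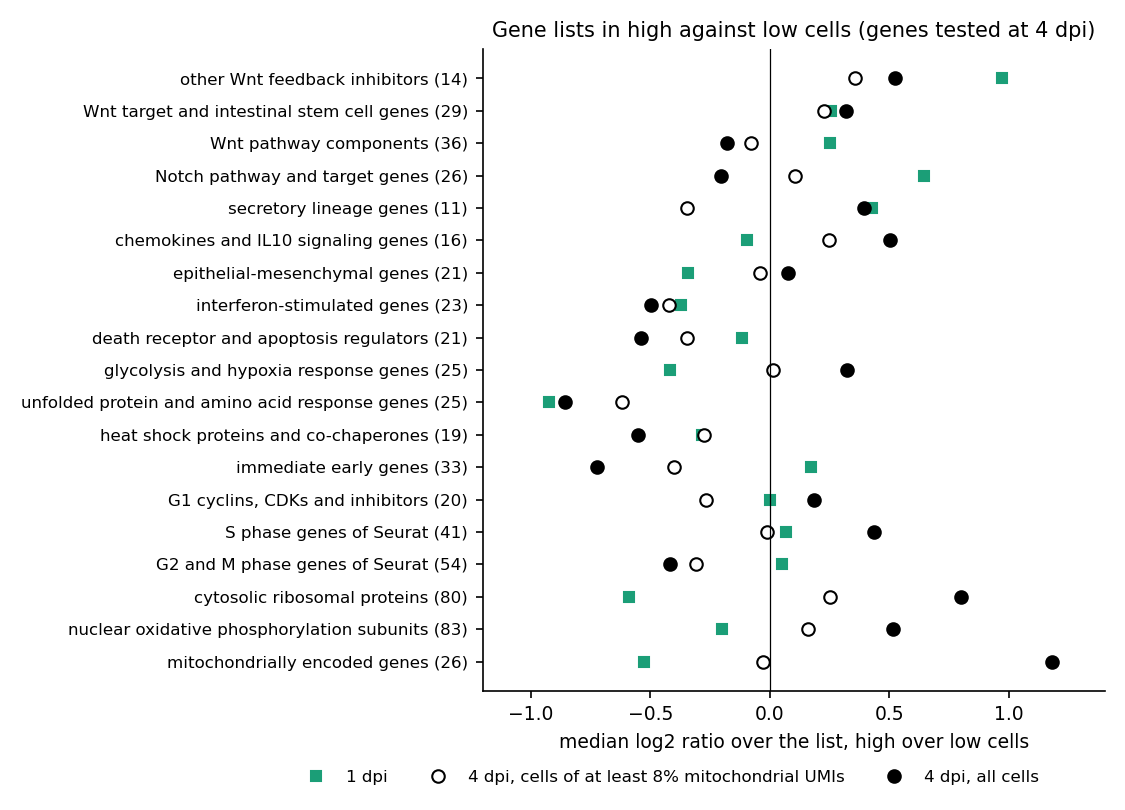
Median log2 ratio of high over low cells over each gene list (number of genes tested at 4 dpi in brackets) in all cells of 4 dpi (filled circles), in cells of 4 dpi with at least 8% mitochondrial UMIs (open circles) and at 1 dpi (green squares). The medians of the feedback inhibitors and Wnt targets lie right of 0 in all 3 and those of the unfolded protein and amino acid response left of 0, while those of ribosomal, respiratory and mitochondrial genes run from 0.52 to 1.18 in all cells of 4 dpi and from -0.59 to -0.20 at 1 dpi.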

How the data were processed

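The authors deposited, for each plate, a table of UMI counts per gene and well, made by mapping to human transcripts with BWA (version not given in the sources used here; hg38 per the submitters' processing notes), without filtering of wells. Mapping only to human transcripts leaves reads of the host uncounted, and reads of near-identical genes may be shared. Cells with over 2000 genes and under 25% mitochondrial UMIs were kept, with ERCC spike-ins (1.30% to 3.57% of UMIs) set aside. The score groups were summed per plate into 10 sums, filtered with filterByExpr, scaled by TMM and fitted with edgeR 4.0.16 (R 4.3.3) by quasi-likelihood, with the plate as a block and a high-against-low term for each time point, leaving 3 residual degrees of freedom. A gene could pass this filter on low counts through the sums of a single group, so some genes with almost no counts in the other group were tested. High and low cells of a plate are paired because they come from the same plate. P-values were adjusted by Benjamini-Hochberg over all genes tested. Doublets were not called. Human UMIs ranged from 4487175 to 7632953 a plate, and intervals and floors cover counting error only. On simulated sums of 10034 genes, 81% of 200 genes changed by 1.5 on the log2 scale were called, and 5.26% of calls were unchanged genes. The simulation gave all genes the same dispersion and changed no gene at 1 dpi. In the data 39.3% of genes were called at 4 dpi, so these rates need not hold there. Named genes were the 12 largest rises and 12 largest falls by log2 ratio among genes called in the same direction in both plates with at least 50 UMIs, the tested members of both Wnt lists, up to 4 called members of each other list with the largest ratio, and genes the study names for these cells. Genes given by name or role only were chosen after their values were seen. The members and lists were chosen with earlier results of these data known. In all, 23 alternatives were tried, and 3 more were added after seeing the data.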

Additional observations from a re-analysis of the deposited data

Results flagged for a closer look

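Every result here was singled out because the high-against-low contrast differed between 4 and 1 dpi by the edgeR test of that difference, which 3246 genes passed in all (29.4% of those tested). The genes below were also picked for their ratio at 4 dpi, which itself favors a difference from 1 dpi. Several of them reached the filter on low counts through 1 group of 4 dpi. Among the 12 genes with the largest rise at 4 dpi, the log2 ratio exceeded that at 1 dpi by 4.45 for CXCL2, 3.71 for TSPAN7, 3.25 for HES2, 3.10 for EPHB6, 2.86 for DPEP1, 2.35 for GPX2, 1.71 for MYH7B and 1.61 for FGF3. For CXCL2, 32 of 52 UMIs in high cells of library 10 came from 1 cell. For genes with 3 or fewer UMIs in the low group, only the edgeR adjusted p of the difference is given, which was 0.000539 for DBH-AS1, 0.00173 for MUC5AC and 0.0238 for CEMIP. Among the 12 genes with the largest fall, the log2 ratio of DHRS2 was lower at 4 than at 1 dpi, with a difference of -6.89. For the others, with 3 or fewer UMIs in the high group, the edgeR adjusted p of the difference was 0.000208 for EPAS1, 2.58e-05 for CYP1A1, 0.0411 for SPRR2D, 0.000702 for ADM, 0.00484 for GULP1, 0.000408 for GATA3, 0.0434 for ATP13A5 and 0.00116 for COL12A1. CYP1A1 was higher in high cells at 1 dpi (log2 ratio 2.42, edgeR adjusted p = 0.0111), the opposite of 4 dpi. The mitochondrial shares of the groups, given above, differed at 4 dpi in a way they did not at 1 dpi, and their part in these differences was not tested.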

How the results depend on the processing

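The 4 left-out score genes stayed higher and past the threshold under every alternative run for them (without library 10 or 11, thinning, at least 8% mitochondrial UMIs and strata of mitochondrial share). Counts of genes called higher and lower moved by over 1.5 times under these settings. At 4 dpi they were 780 and 737 after thinning to 5000 UMIs (6108 genes tested), 894 and 1079 within strata of mitochondrial share, 1258 and 1358 by DESeq2, 151 and 252 in cells of at least 8%, and ran from 1131 to 2090 and from 1243 to 2226 as each plate was left out. At 1 dpi they were 200 and 360 after thinning, 242 and 543 by DESeq2, 1963 and 513 without scaling, and ran from 199 to 859 and from 419 to 1254 with a plate left out. For the difference they were 523 and 473 after thinning, 590 and 609 within strata of mitochondrial share, 867 and 853 by DESeq2, 688 and 3184 without scaling, 140 and 85 in cells of at least 8%, and ran from 978 to 1478 and from 1011 to 1564. Where leaving out a plate left 1 plate at 4 dpi, its spread was assumed to be that of the other plates. Without the plate as a replicate block, 2105 were higher and 2200 lower at 4 dpi, and the counts at 1 dpi and of the difference also moved by less than 1.5 times. No scores were tied at a limit, so the order of ties changed nothing.

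Among the genes given with a ratio in the text, signs reversed for these. Within strata of mitochondrial share BIRC5 was at -0.11, CCND1 at 0.06, CDH1 at 0.08, NKD2 at 0.25 and VEGFA at 0.06. In cells of at least 8%, KREMEN1 was at -0.37, MSX2 at 0.03 and SFRP5 at -0.17. Under 15% mitochondrial UMIs EPHB3 was at -0.03 and LGR5 at -0.12. MYC was at -0.01 after thinning and ran from -0.07 to 0.69 with library 10 or 11 left out, and SOX9 at -0.01 without scaling. List medians also reversed. That of the Wnt targets was -0.02 under 15%. That of Notch genes was 0.17 after thinning, 0.25 within strata of mitochondrial share and 0.11 in cells of at least 8%. That of secretory genes was -0.40 and -0.31 with NKD1 or AXIN2 left out of the score, -0.56 with smaller groups at both ends of the score, -0.64 within strata of cycle genes, -0.35 in cells of at least 8% and ran from -0.59 to 0.38 as each plate was left out. That of S phase genes was -0.22 within strata of mitochondrial share and -0.01 in cells of at least 8%, and that of mitochondrial genes -0.11 and -0.03. That of G2/M genes was 0.22 with NOTUM left out of the score, 0.02 and 0.05 within strata of depth and of cycle genes, and ran from -1.48 to 0.50 as each plate was left out. That of G1 genes was -0.01 with those smaller groups, -0.03 without scaling and -0.27 in cells of at least 8%. That of epithelial-mesenchymal genes was -0.06 with NOTUM left out, -0.14 without scaling and -0.04 in cells of at least 8%, and ran from -0.09 to 0.16 as each plate was left out. The cause of these changes was not tested. Of the other values for single genes and lists, 3339 kept their call or moved less than the spread, 241 lost and 21 gained a call, and 120 moved by more. With 2 plates at 4 dpi and low counts for many genes, small ratios were not detectable.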
